A study of Rattus norvegicus with 3 samples.

Results

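The genes of the cartilage collagens, Col2a1, Col11a1, Col11a2, Col9a1, Col9a2, Col9a3 and Col10a1, were followed through single-cell RNA of cartilage and subchondral bone of the rat mandibular condyle. They were chosen by name as the genes for the chains of collagens II, IX, X and XI. All 7 were found in each of the 3 libraries, among 19241 gene names in sham, 19665 in UAC and 19725 in UAC + miR-330, and 18247 names were shared by the 3.

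Cartilage takes its tensile strength from thin fibrils whose body is collagen II, a trimer of the Col2a1 product. Collagen XI, which contains the chains made by Col11a1 and Col11a2, nucleates these fibrils and limits their width, while collagen IX, built from the products of Col9a1, Col9a2 and Col9a3, sits on their surface and links them to the surrounding matrix. Collagen X, the product of Col10a1, forms a separate network around hypertrophic chondrocytes, the enlarged cells of the zone in which cartilage gives way to bone.

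The animals were 24 wild type SD rats, 8 in each of 3 groups. Sham rats received Vector AAV, an adeno-associated virus without the miRNA, and no crossbite. UAC rats received Vector AAV and a unilateral anterior crossbite, a dental change that puts abnormal load on the temporomandibular joint, and UAC + miR-330 rats received the crossbite and an AAV that carries miR-330. Injections went into the joint, and the UAC groups were kept for 8 weeks. The 16 condyles of a group were pooled into 1 library, so the rats of a pool cannot be told apart and no difference between groups has a replicate check. The ages of the rats were not given in the sources used here.

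Depth was 77668015 UMIs (unique molecular identifiers, each marking a captured RNA molecule) in 15 clusters of cells for sham, 92629658 in 18 clusters for UAC and 97255383 in 19 clusters for UAC + miR-330. A level is the number of UMIs of a gene per 1000000 UMIs of its cluster or library (CPM). Each is given with an exact Poisson 95% interval where precision matters, and shares with an exact binomial one. Both intervals cover counting error only. A UMI tags the end of an RNA molecule, so levels were not divided by gene length, and an order of genes is an order of captured molecules. A gene was called higher or lower between libraries at a ratio of at least 1.5 with at least 50 UMIs in the pair of libraries, and the words rose and fell are kept for such genes.

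In each library the cluster with the highest summed level of 21 chondrocyte markers, none of them a collagen, was taken as the cartilage marker cluster. It was cluster 12 in sham, cluster 16 in UAC and cluster 17 in UAC + miR-330. The markers summed to 24124 CPM in the sham cluster, where 18 of 21 were enriched, and the median of the other sham clusters was 138 CPM. In the UAC cluster the sum was 20322 CPM with 18 markers enriched, and in the UAC + miR-330 cluster 23507 CPM with 19 enriched. Matn1, a matrilin of cartilage, had 0 UMIs in the latter pair of clusters. The most abundant marker was Snorc in sham, Comp in UAC and Hapln1 in UAC + miR-330.

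The same clusters were not made of chondrocytes alone. Osteogenic markers summed there to 12732, 12410 and 11575 CPM in sham, UAC and UAC + miR-330, led by Bglap, the osteocalcin gene of osteoblasts, with 10, 11 and 11 of 11 listed markers enriched. Fibroblast markers summed to 2928, 3123 and 2610 CPM, led by Postn, with 7 of 10 enriched in each library. Mural, skeletal muscle and Schwann cell markers were also at their highest in these clusters. The 10 leading genes by fold held 1 endothelial marker (Cdh5) in sham, 1 osteogenic marker (Mepe) in UAC + miR-330 and 0 chondrocyte markers in any library. The clusters are therefore compared by number and are not named as a cell type. Within them, a change in the share of chondrocytes and a change in RNA per chondrocyte cannot be told apart.

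The labels also name osteoclasts. Of their 9 markers, Acp5 had 11610, 10364 and 9193 UMIs in all of sham, UAC and UAC + miR-330, Mmp9 had 4840, 8317 and 8173, Nfatc1 4366, 5736 and 6340, and Ctsk 1857, 1804 and 1126. Oscar had 150, 392 and 361 UMIs and Atp6v0d2 72, 92 and 13. The lowest were Ocstamp, with 3, 2 and 1 UMIs, Calcr, with 4, 1 and 2, and Dcstamp, which had 2 UMIs in UAC and was not listed in the other libraries. In the cartilage marker clusters these markers summed to 391, 499 and 410 CPM, led by Nfatc1, Ctsk and Nfatc1, with 2 enriched in each library and Ocstamp, Atp6v0d2 and Calcr at 0 UMIs in all 3. Several of these genes are also made by other cells, and no cluster was read as osteoclasts.

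Nearly all cartilage collagen UMIs lay in the cartilage marker cluster. It held 97.6% of them in sham (95% interval 97.6 to 97.7), 97.5% in UAC (97.5 to 97.6) and 96.5% in UAC + miR-330 (96.4 to 96.5). For single genes the share ran from 95.04% for Col9a3 in UAC + miR-330 to 98.4% for Col10a1 in UAC. The 7 genes together made up 4.20%, 3.25% and 4.53% of all UMIs of the cluster in sham, UAC and UAC + miR-330. Col2a1 was the gene at place 3 by level in each of the clusters.

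The order of the genes by level was the same in the 3 libraries. Col2a1 came first, followed by Col11a1, Col11a2, Col9a2, Col9a1, Col9a3 and Col10a1, and the intervals of neighbours in this order did not overlap in any library. The spread of the levels was wide, from 27180 CPM for Col2a1 to 279 CPM for Col10a1 in the sham cluster. It was narrower in UAC + miR-330, from 24344 to 699 CPM. The partners Col9a2 and Col9a1 stood closest there, at 2560 CPM (2520 to 2602) and 2361 CPM (2322 to 2401).

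**Figure D1:**
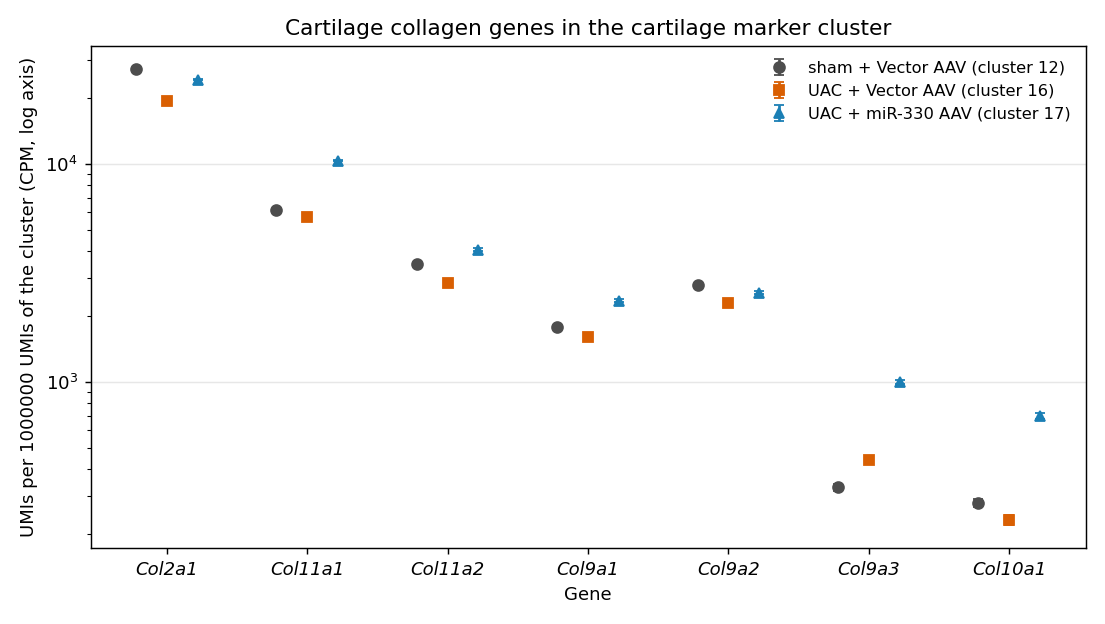
Levels of the 7 cartilage collagen genes (UMIs per 1000000 UMIs of the cluster, log axis) in the cartilage marker cluster of each library, 1 pooled library per condition; bars are exact Poisson 95% intervals and are mostly smaller than the points. Col2a1 is highest and Col10a1 lowest in each library, and Col11a1, Col9a3 and Col10a1 stand at 10340, 999 and 699 CPM in UAC + miR-330.

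UAC was compared with sham to see the collagen genes under abnormal load, and UAC + miR-330 with UAC to see them after delivery of the miRNA. Between UAC and sham none of the 7 genes passed a ratio of 1.5 within the cartilage marker cluster, where 1.61% of 10052 genes were lower and 10.5% higher by that much. The level was lower in UAC for 6 genes and higher for Col9a3, and the median log2 ratio of the 7 was -0.27, beside 0.14 for all genes. With deposited mean counts, and per UMI of the chondrocyte markers, Col9a1 and Col11a1 also came out above 0, and the median was -0.071 and -0.019, so the direction of these 2 genes depended on the scale. On these scales Col9a3 passed the limit, with log2 ratios of 0.61 and 0.67. Over all clusters Col9a3 too was lower in UAC, with a log2 ratio of -0.44.

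Between UAC + miR-330 and UAC all 7 genes were higher by CPM, and 3 of 7 (Col10a1, Col9a3 and Col11a1) rose by at least 1.5 times, beside 8.48% of 9798 genes. None of the 7 fell, beside 8.01% of genes. The median log2 ratio of the 7 was 0.56, and that of all genes was 0.02. Per UMI of the chondrocyte markers Col9a2 turned to the other side of 0, and the 6 others stayed above it. Between UAC + miR-330 and sham 3 of 7 were higher by at least 1.5 times, again Col10a1, Col9a3 and Col11a1, beside 18.8% of 10012 genes. None of the 7 was lower by that much within the cluster, beside 4.49%. Over all clusters the calls of this comparison were different and are given below. These comparisons share libraries, so the third is not independent of the first pair.

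Markers of other cells moved between the clusters too. The 9 neutrophil markers summed to 1246 CPM in the sham cluster, 4375 CPM in UAC and 865 CPM in UAC + miR-330, led by S100a9 in the first pair of libraries and by S100a8 in the third, and Ltf had 0 UMIs in sham and UAC + miR-330. The 7 early granulocyte markers, led by RatNP-3b, summed to 30.8, 846 and 59.6 CPM, with Prtn3 and Ms4a3 at 0 UMIs in sham and Defa11 at 0 in UAC + miR-330. None of the neutrophil markers was enriched in these clusters. Skeletal muscle markers, led by Tnni2, summed to 133, 33.4 and 91.4 CPM in sham, UAC and UAC + miR-330, the order of libraries seen for Col2a1. In sham 5 of 6 endothelial markers were enriched, with a sum of 54.8 CPM led by Emcn, and in UAC and UAC + miR-330 none was, with sums of 6.35 and 6.29 CPM, and Cdh5, Kdr, Emcn and Tek at 0. Their part in the collagen values was not tested.

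Col2a1, which encodes the fibril body, stood at 27180 CPM in sham (27072 to 27287), 19379 CPM in UAC (19268 to 19491) and 24344 CPM in UAC + miR-330 (24218 to 24471). It was lowest in UAC, with intervals apart from both other libraries. The level in UAC was 1.40 times lower than in sham, a log2 ratio of -0.49 (-0.50 to -0.48). In the comparison of all genes 2.38% had a lower ratio than Col2a1. With the median of all genes set to 0 its log2 ratio was -0.62, which is past the 1.5-fold limit. It was smaller with deposited mean counts, -0.29, and per UMI of the chondrocyte markers, -0.24. Over all clusters it was -1.33. UAC + miR-330 was 1.26 times above UAC, a log2 ratio of 0.33, and 1.12 times below sham, a log2 ratio of -0.16. The last of these changed sign with deposited mean counts, at 0.27, a scale that adds 0.43 to every log2 ratio of this comparison. Over all clusters, a count that takes in other cells, the log2 ratio against sham was -1.08. The cartilage marker cluster made up 11.6% of UMIs in sham and 6.05% in UAC + miR-330.

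Col11a1, a chain of the collagen that nucleates fibrils, stood at 6162 CPM in sham (6111 to 6214), 5713 CPM in UAC (5652 to 5774) and 10340 CPM in UAC + miR-330 (10258 to 10423). UAC + miR-330 was thus the high library within the cluster, while sham and UAC differed by 1.08 times. The gene rose by 1.81 times from UAC to UAC + miR-330, a log2 ratio of 0.86 (0.84 to 0.88), and went from place 11 to place 5 among all genes of the cluster. Its partner Col11a2 stood at 3458, 2848 and 4040 CPM in sham, UAC and UAC + miR-330. Col11a2 followed the same order of libraries, with log2 ratios of -0.28 for UAC against sham, beside -0.11 for Col11a1, and 0.50 for UAC + miR-330 against UAC, beside 0.86. Over all clusters sham was instead the highest library for Col11a1 and Col11a2. Their log2 ratios for UAC + miR-330 against sham were -0.19 and -0.71 there. For each 1000 Col11a1 UMIs there were 561 Col11a2 UMIs in sham (553 to 569), 499 in UAC (489 to 508) and 391 in UAC + miR-330 (385 to 397), so the balance of these chains' RNAs shifted towards Col11a1 in both steps.

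The collagen IX genes did not move as a unit. Col9a1 stood at 1783 CPM in sham (1755 to 1810), 1601 CPM in UAC (1569 to 1634) and 2361 CPM in UAC + miR-330, and its ratio to UAC of 1.47 times, a log2 ratio of 0.56, lay just under the limit. Col9a2 stood at 2771 CPM in sham (2737 to 2806), 2292 CPM in UAC (2254 to 2330) and 2560 CPM in UAC + miR-330, and had the smallest ratio of the 7 genes between UAC + miR-330 and UAC, 1.12 times. Col9a3 stood at 329 CPM in sham (317 to 341), 439 CPM in UAC (423 to 457) and 999 CPM in UAC + miR-330 (974 to 1025). It was thus the gene with a higher level in each library along this order, by 1.34 times with UAC and by 2.27 times with miR-330, where the log2 ratio was 1.19 (1.12 to 1.25).

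Although the 3 chains form one molecule, their RNAs were captured in unequal numbers. For each 1000 Col9a1 UMIs there were 1555 Col9a2 UMIs in sham, 1431 in UAC and 1084 in UAC + miR-330. The count of Col9a3 UMIs per 1000 Col9a1 UMIs was 185 in sham (177 to 192), 274 in UAC (263 to 287) and 423 in UAC + miR-330 (410 to 436). The 3 genes were therefore closest to equal counts in UAC + miR-330, with Col9a3 still the lowest.

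Col10a1, the gene of the hypertrophic network, stood at 279 CPM in sham (268 to 290), 232 CPM in UAC (220 to 244) and 699 CPM in UAC + miR-330 (678 to 721). The UAC + miR-330 library was high and the other libraries were low. UAC lay below sham at a log2 ratio of -0.27 (-0.36 to -0.17). This depended on the scale, with -0.071 for deposited mean counts and -0.019 per UMI of the chondrocyte markers. From UAC to UAC + miR-330 the gene rose by 3.01 times, a log2 ratio of 1.59 (1.503 to 1.68), the largest among the 7, and 99.8% of all genes compared had a lower ratio. Against sham it was 2.50 times higher within the cluster and 1.30 times over all clusters, a log2 ratio of 0.38 that is not past the limit.

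Relative to each other, the 7 genes shifted away from Col2a1. Col2a1 made up 64.8% of their UMIs in the sham cluster (64.6 to 64.9), 59.6% in UAC (59.4 to 59.8) and 53.7% in UAC + miR-330 (53.5 to 53.9). The pair of collagen XI genes took 22.9%, 26.3% and 31.7%. The collagen IX genes took 11.6%, 13.3% and 13.1%, and Col10a1 took 0.665%, 0.714% and 1.54%. These shares do not depend on how the libraries are scaled.

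Counted per 1000 Col2a1 UMIs, each of the 6 other genes was higher in UAC than in sham. Col11a1 stood at 227 in sham (225 to 229), 295 in UAC (291 to 298) and 425 in UAC + miR-330 (421 to 429). Col9a3 stood at 12.1, 22.7 and 41.0, which is 1.87 times more in UAC than in sham and 1.81 times more again in UAC + miR-330. Col10a1 stood at 10.3, 11.97 and 28.7, so its shift against Col2a1 lay almost wholly between UAC and UAC + miR-330. Col9a2 was the exception in the step from UAC to UAC + miR-330, with 118 and 105 UMIs per 1000 Col2a1 UMIs, and 102 in sham.

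**Figure D2:**
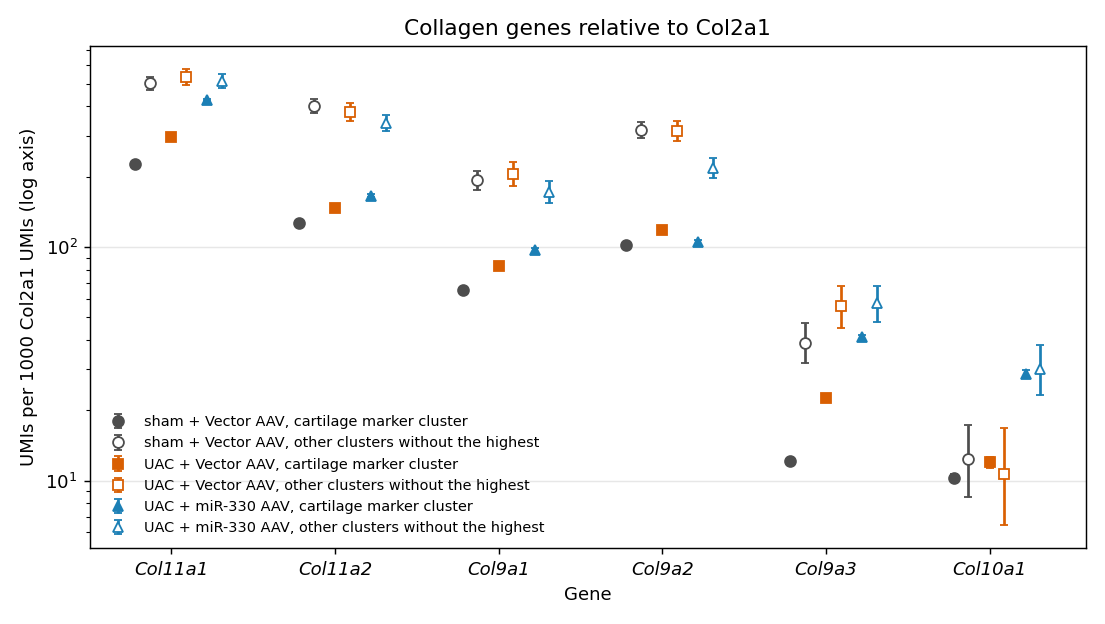
UMIs of 6 cartilage collagen genes per 1000 Col2a1 UMIs (log axis) in each library, with exact 95% counting intervals; filled points are the cartilage marker cluster and open points are the other clusters together, leaving out the one highest in the 7 genes. Open points lie above filled ones for Col11a1, Col11a2, Col9a1, Col9a2 and Col9a3, and Col10a1 has 12.4, 10.7 and 30.0 in the open points of sham, UAC and UAC + miR-330.

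Over whole libraries the picture was set also by how much of each library the cartilage marker cluster made up, which was 11.6% of UMIs in sham, 6.46% in UAC and 6.05% in UAC + miR-330. Library-wide, Col2a1 stood at 3210, 1273 and 1520 CPM in sham, UAC and UAC + miR-330. Col11a1 stood at 738, 380 and 648 CPM and Col10a1 at 33.6, 15.2 and 43.7 CPM. In this count 6 of 7 genes fell by at least 1.5 times between UAC and sham, all but Col9a3, beside 6.05% of 14235 genes. Between UAC + miR-330 and UAC 3 of 7 rose, the same genes as within the cluster, beside 11.4% of 14485 genes. The median log2 ratios of the 7 were -1.12 and 0.48, and those of all genes -0.02 and 0.13. With UAC + miR-330 set against sham library-wide, 1 of 7 was higher by at least 1.5 times (Col9a3, 0.67), beside 18.8% of 14376 genes, and 3 of 7 were lower (Col2a1, -1.08, Col9a2, -1.04, and Col11a2, -0.71), beside 7.92%. Col10a1 and Col11a1, which were called higher within the cluster, had log2 ratios of 0.38 and -0.19 here, and the median of the 7 was -0.52, beside 0.14 for all genes. Fewer cells of this cluster and less RNA per cell cannot be told apart in these sums.

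Outside the cartilage marker cluster the genes were low but seldom at 0. The median Col2a1 level over the other clusters was 42.8 CPM in sham, 21.2 CPM in UAC and 26.2 CPM in UAC + miR-330, which is 636, 914 and 928 times below the cartilage marker cluster. Col10a1 had medians of 0.446, 0.218 and 0.565 CPM there and 0 UMIs in 2 of 14 other sham clusters and in 6 of 17 other UAC clusters. B cell, neutrophil or early granulocyte markers had the highest sum in 13 of 14 of these clusters in sham, 17 of 17 in UAC and 16 of 18 in UAC + miR-330.

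In the level of the 7 genes a single other cluster stood out in sham and in UAC + miR-330. In sham cluster 14 the 7 genes summed to 1580 CPM, 3.77% of the level in the cartilage marker cluster, and the chondrocyte markers to 1179 CPM, 4.89% of the level there. In UAC + miR-330 cluster 5 the sums were 1540 CPM (3.40%) and 729 CPM (3.10%). The chondrocyte markers alone had a higher sum in UAC + miR-330 cluster 2, 956 CPM, of which Sox5 made up 848 CPM, and sums of 744 CPM in UAC cluster 2 and 667 CPM in sham cluster 1. The medians over the other clusters of these libraries were 110 and 64.2 CPM for the 7 genes. Both clusters had the highest erythroid marker sum of their library, 25022 and 22468 CPM. In UAC the cluster highest in erythroid markers was cluster 13, with 3068 CPM, and it was also the highest of the others in the collagens, at 135 CPM. Doublets and single cells cannot be separated in cluster sums, and their part in these values was not tested.

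**Figure D3:**
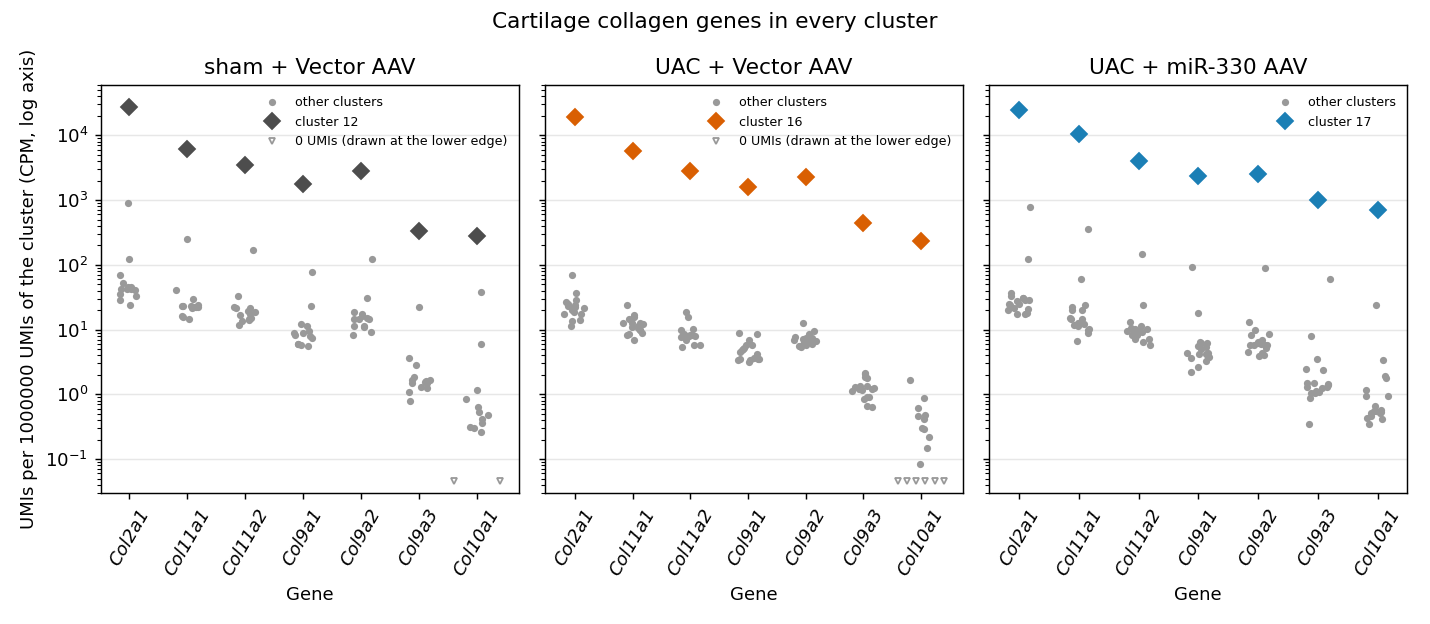
Levels of the 7 genes (UMIs per 1000000 UMIs of the cluster, log axis) in every cluster of the 3 libraries; coloured diamonds are the cartilage marker cluster, grey points the others, and open triangles at the lower edge clusters with 0 UMIs. The grey points that stand above the rest are cluster 14 in sham (Col2a1 898 CPM) and cluster 5 in UAC + miR-330 (Col2a1 774 CPM).

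The genes did not keep the same proportions outside the cluster. Sham had 127 Col11a2 UMIs per 1000 Col2a1 UMIs inside it (126 to 129) and 331 in all other clusters (311 to 352). In UAC the values were 147 inside and 366 outside (336 to 398), and in UAC + miR-330 166 inside and 269 outside (252 to 286). For Col11a1 they were 227 and 427 in sham, 295 and 513 in UAC, and 425 and 486 in UAC + miR-330. Without the other cluster highest in the 7 genes, which was cluster 14 in sham, cluster 13 in UAC and cluster 5 in UAC + miR-330, the outside values were 402, 379 and 340 for Col11a2 and 502, 535 and 516 for Col11a1. Col2a1 was thus a smaller part of the collagen UMIs in the other clusters than in the cartilage marker cluster. For Col10a1 the values in sham were 10.3 inside (9.87 to 10.7) and 12.4 outside without cluster 14 (8.54 to 17.3), intervals that overlapped. With cluster 14 included the outside value was 22.2 (17.9 to 27.3), and in cluster 14 alone it was 41.7 (31.5 to 54.2), both above the value inside.

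Other collagens gave a measure of how general these shifts were. Of 23 other collagen genes in the tables, 21 had enough UMIs for UAC against sham, where 3 rose and 1 fell, beside 10.5% and 1.61% of all genes, and the median log2 ratio was 0.13. With the median of all genes set to 0, 2 instead of 3 were past the limit upwards, a scale to which these shares do not apply. For UAC + miR-330 against UAC 6 of 21 rose and 2 fell, beside 8.48% and 8.01%, and the median was 0.33. Against sham, 11 of 22 were higher in UAC + miR-330 and 2 lower, beside 18.8% and 4.49%, with a median of 0.60. With the median of all genes set to 0 these counts were 9 and 4. The same shares of all genes apply to the counts of the lists that follow. Col1a1, the main chain of bone collagen, stood at 57395, 46960 and 49062 CPM in sham, UAC and UAC + miR-330, and its partner Col1a2 at 2348, 1927 and 1173 CPM. Col3a1, of looser fibrous tissue, stood at 5091, 4767 and 3624 CPM and Col6a2 at 2028, 1926 and 1851 CPM. These genes do not stand for the list, since 14 of 21 had a log2 ratio above 0 from UAC to UAC + miR-330.

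Other genes of the list moved more. Col24a1, a fibrillar collagen of forming bone, stood at 110, 105 and 258 CPM, a log2 ratio of 1.31 between UAC + miR-330 and UAC. Col4a2, a basement membrane chain, rose from 2.34 to 6.97 CPM on 14 and 41 UMIs. Between UAC and sham the largest rises of the list were Col5a3, from 3.33 to 12.04 CPM, and Col14a1, from 8.76 to 24.8 CPM, and the largest ratios below 0 were those of Col18a1, from 7.21 to 1.17 CPM, and Col16a1, from 719 to 542 CPM.

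Collagen chains are hydroxylated and folded in the endoplasmic reticulum before they leave the cell. Of 19 genes of this step with enough UMIs, 0 rose and 0 fell between UAC and sham, with a median log2 ratio of -0.13. From UAC to UAC + miR-330 3 rose and 0 fell, with a median of 0.06. P3h2, a prolyl 3-hydroxylase, stood at 273, 249 and 472 CPM in sham, UAC and UAC + miR-330. Colgalt2, which attaches galactose to hydroxylysine, stood at 190, 174 and 311 CPM, and P4ha1, a prolyl 4-hydroxylase subunit, at 565, 568 and 938 CPM. Serpinh1, the collagen chaperone, stood at 2043, 1773 and 1742 CPM, and Sparc, a collagen-binding matrix protein, at 36634, 28315 and 29757 CPM, so that both lay below sham in both UAC libraries. Plod2, a lysyl hydroxylase, stood at 1415, 1404 and 1847 CPM, and Fkbp7 had the lowest ratio of the list in UAC + miR-330 against UAC, at 239 and 212 CPM.

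Of 8 genes of procollagen secretion none passed the limit between UAC and sham or between UAC + miR-330 and UAC, and the medians were 0.22 and 0.28. Against sham, 5 of 8 were higher in UAC + miR-330 by that much, beside 18.8% of all genes, with a median of 0.61. With the median of all genes set to 0 the count was 1 of 8, and the 18.8% does not apply to that scale. The cartilage marker cluster held 68.3%, 43.0% and 40.1% of the Sec24d UMIs of sham, UAC and UAC + miR-330, the highest shares of the 5, and 7.77%, 5.44% and 5.01% for Mia2, the gene of the smaller count. Sec24d, a coat protein of the vesicles that carry procollagen, had the largest ratio of these in the second comparison, with 134 CPM in UAC and 195 CPM in UAC + miR-330. Of 5 genes of propeptide processing 1 rose in each of these comparisons, and the medians were -0.12 and -0.13. The gene that rose in UAC was Adamts14, named after its values were seen, at 3.10 CPM in sham (2.06 to 4.49) and 4.85 CPM in UAC (3.25 to 6.96), intervals that overlapped, and it was not past the limit with the median of all genes set to 0. Adamts3, which cleaves the amino end of procollagen II and was the gene that rose from UAC to UAC + miR-330, stood at 37.4, 43.3 and 79.4 CPM, with 26.9%, 10.5% and 15.5% of its UMIs in the cartilage marker cluster, and Pcolce, an enhancer of cleavage at the other end, at 1009, 862 and 614 CPM. Of 5 crosslinking genes 1 rose in each comparison, with medians of 0.14 and 0.32. Loxl4 rose in UAC, at 4.43, 11.7 and 17.5 CPM in sham, UAC and UAC + miR-330, and Loxl2, another lysyl oxidase, rose from UAC to UAC + miR-330, at 161, 185 and 300 CPM. Lox stood at 205, 221 and 277 CPM.

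Of 14 transcription factors of the cartilage collagen genes with enough UMIs, 6 rose and 0 fell between UAC + miR-330 and UAC, beside 8.48% and 8.01% of all genes, with a median log2 ratio of 0.49. Between UAC and sham 1 rose and 1 fell, beside 10.5% and 1.61%, with a median of 0.03. Sox9, which drives Col2a1 and most other genes of the cartilage matrix, stood at 357, 316 and 512 CPM in sham, UAC and UAC + miR-330, and was chosen after its values were seen. Its partner Sox6 stood at 514, 638 and 914 CPM. Mef2c, a factor of chondrocyte hypertrophy, stood at 765, 780 and 1507 CPM, Runx2, which acts on Col10a1, at 435, 517 and 839 CPM, and Trps1 at 1045, 1010 and 1910 CPM. Foxa2, another factor of hypertrophy, fell from 23.2 to 11.04 CPM with UAC and stood at 25.3 CPM in UAC + miR-330. Arid5b had the largest ratio in UAC of those with enough UMIs, at 35.6, 67.4 and 46.7 CPM. Several of these genes were not particular to the cartilage marker cluster, which held 25.5%, 14.4% and 17.2% of the Mef2c UMIs of sham, UAC and UAC + miR-330, 35.8%, 19.7% and 25.9% for Trps1, 80.5%, 53.3% and 60.7% for Runx2, and 1.63%, 1.25% and 0.823% for Arid5b. It held 97.5%, 98.4% and 97.8% for Sox9. Sox9, Sox6 and Sox5 are among the chondrocyte markers by which this cluster was chosen. For Sox5, named after its values were seen, the cluster held 41.4%, 27.2% and 30.7%.

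Hypertrophic chondrocyte genes, the setting in which Col10a1 is made, were higher in UAC + miR-330 than in UAC for most of the list. Of 14 genes 9 rose and 1 fell, beside 8.48% and 8.01% of all genes, with a median log2 ratio of 0.66. Runx2 is counted both here and among the transcription factors. Between UAC and sham 2 rose and 3 fell, beside 10.5% and 1.61%, with a median of 0.08. Ihh, the signal of prehypertrophic cells, stood at 127, 57.5 and 99.7 CPM in sham, UAC and UAC + miR-330, and Alpl, the phosphatase of mineralizing cells, at 1015, 591 and 940 CPM. Ibsp, bone sialoprotein, stood at 778, 678 and 1357 CPM. By CPM these genes shared the low level in UAC with Col10a1. Against sham the log2 ratio was -0.20 for Ibsp, and deposited mean counts add 0.20 to every ratio. On that scale Col10a1 stood at -0.071. Spp1, osteopontin, and Mmp13, the main collagenase of cartilage, went the other way, with Spp1 at 1542, 2573 and 1914 CPM and Mmp13 at 140, 411 and 251 CPM. Fgfr3 had the largest ratio of the list between UAC + miR-330 and UAC, with 7.69 and 29.2 CPM on 46 and 172 UMIs. Several of these genes are also made by osteoblasts, and the osteogenic marker list holds Ibsp, Alpl, Runx2, Sp7 and Pth1r. Each of these shared genes was among the 9 that rose from UAC to UAC + miR-330, so the count is not one of chondrocyte genes alone.

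Enzymes that break down collagen II did not share one course. Of 6 with enough UMIs 4 rose and 0 fell between UAC and sham, beside 10.5% and 1.61% of all genes, with a median log2 ratio of 0.74. From UAC to UAC + miR-330 0 of 7 rose and 4 fell, beside 8.48% and 8.01%, with a median of -0.71. Mmp13, Mmp8 and Mmp9 rose and then fell. Mmp13 had the largest rise in UAC of those with enough UMIs, a log2 ratio of 1.55, and in UAC + miR-330 still stood above sham at 0.84. Mmp8 and Mmp9 are also neutrophil or osteoclast markers, stood at 21.5, 49.0 and 15.8 CPM and at 11.5, 19.6 and 2.72 CPM in sham, UAC and UAC + miR-330, and had 0.503% and 2.15% of their sham UMIs in the cartilage marker cluster. The neutrophil marker sum had the same order of libraries, and its part in these values was not tested. Ctsk stood at 177, 260 and 153 CPM. Mmp14 stood at 68.4, 113 and 114 CPM and so kept its higher level, with a log2 ratio of 0.74 against sham. Mmp3, named after its values were seen, had 4, 24 and 30 UMIs, and Mmp2, the most abundant of the list, stood at 512, 425 and 349 CPM.

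Partners of the collagens in the matrix and on the cell surface were mixed. Of 13 non-collagen cartilage matrix genes 0 rose and 1 fell between UAC and sham, with a median log2 ratio of 0.06. From UAC to UAC + miR-330 2 rose and 0 fell, with a median of 0.13. Snorc, a chondrocyte proteoglycan, stood at 6750, 4397 and 5620 CPM, the order of libraries seen for Col2a1. Hapln1, the link protein that holds aggrecan to hyaluronan, stood at 4885, 4499 and 6177 CPM. Comp, which binds the surface of collagen fibrils, stood at 6586, 5925 and 4508 CPM and so did not share the higher level of Col2a1 in UAC + miR-330. Matn3, a matrilin that joins collagen IX, stood at 46.3, 53.3 and 113 CPM, and Cnmd, chondromodulin, at 152, 164 and 273 CPM. Snorc, Hapln1, Comp, Matn3 and Cnmd, like most of this list, are among the chondrocyte markers by which the clusters were chosen. Of 6 collagen receptors 0 passed the limit between UAC and sham, and 2 rose between UAC + miR-330 and UAC, with medians of 0.11 and 0.26. They were Itga1, an integrin chain, at 27.3 and 66.6 CPM, and Ddr2, a kinase that binds fibrillar collagen, at 72.6 and 118 CPM.

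Over all 52 clusters the genes most like the cartilage collagens were ranked by Pearson's r of log2(CPM + 1) with the mean of the 7, among 5842 genes. Only genes with at least 100 UMIs in the cartilage marker cluster of every library were ranked, so genes low there were left out. Hapln1 came first with r = 0.99, followed by Col1a1, Acan, Col5a2 and Sparc, each also with r = 0.99. The next places were AABR07068316.1, Fmod, Clec3a, Snorc and Bglap. The list held osteoblast genes beside cartilage genes. The clusters share libraries, and the value rests mainly on 1 high cluster in each library, so r describes where the genes were found.

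Over the 3 cartilage marker clusters the genes closest to Col2a1 were Frzb, a secreted Wnt antagonist of cartilage, and then Fam162a, Tmem150a, Plcd1 and Slc38a3, by Euclidean distance of centred log2 CPM among 3857 genes. The 3857 were the genes with at least 200 UMIs in the cartilage marker cluster of every library. Frzb stood at 117, 84.6 and 104 CPM in sham, UAC and UAC + miR-330, a distance of 0.02. Its sham UMIs lay to 96.3% in the cartilage marker cluster. For Fam162a, Tmem150a, Plcd1 and Slc38a3 this share was 63.7%, 83.1%, 89.5% and 96.2% in sham. In UAC it was 45.3%, 66.0%, 71.7% and 95.4%. The genes closest to Col10a1 were Col24a1, Susd5, Usp53, Clec3a and AABR07000398.1. Their shares in the cluster were 96.2%, 81.7%, 78.6%, 96.8% and 14.2% in sham, and 95.6%, 72.9%, 58.3%, 97.6% and 8.33% in UAC. Clec3a, a cartilage lectin, stood at 1172, 1006 and 2268 CPM, a distance of 0.32 from Col10a1. With 3 libraries such closeness is a description of 3 values.

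The promoters of the cartilage collagen genes were read for short motifs. Sequences came from RefSeq on assembly GRCr8, where 5 of the 7 genes were matched, and Col2a1 and Col9a3 were not in the table. The 250 bases before the gene start were searched for TATAAA, the letters of the TATA box, on the strand of the gene, and on both strands for GGGCGG, the letters of a GC box, and for ACAAAG and ACAATG, letters of the kind that SOX factors bind. Of 27457 promoters of this length 8.38% held TATAAA, 32.4% GGGCGG, 16.0% ACAAAG and 10.9% ACAATG. Col10a1, which rose most from UAC to UAC + miR-330, is shown with Col11a1, which also rose in that comparison, and with Col11a2, the partner with a smaller ratio, and capitals mark the matches.
Col10a1, chr20:39737286-39737535, plus strand: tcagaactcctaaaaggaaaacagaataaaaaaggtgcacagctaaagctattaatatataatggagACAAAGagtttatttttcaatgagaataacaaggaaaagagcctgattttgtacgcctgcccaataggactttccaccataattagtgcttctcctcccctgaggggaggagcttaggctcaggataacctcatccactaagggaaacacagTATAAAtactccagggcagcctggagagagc
Col11a1, chr2:204508886-204509135, plus strand: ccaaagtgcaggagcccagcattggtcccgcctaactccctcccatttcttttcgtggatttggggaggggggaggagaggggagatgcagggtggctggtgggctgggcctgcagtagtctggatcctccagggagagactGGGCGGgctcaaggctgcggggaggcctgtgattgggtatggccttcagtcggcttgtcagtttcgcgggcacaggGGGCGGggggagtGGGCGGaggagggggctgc
Col11a2, chr20:4817649-4817898, minus strand: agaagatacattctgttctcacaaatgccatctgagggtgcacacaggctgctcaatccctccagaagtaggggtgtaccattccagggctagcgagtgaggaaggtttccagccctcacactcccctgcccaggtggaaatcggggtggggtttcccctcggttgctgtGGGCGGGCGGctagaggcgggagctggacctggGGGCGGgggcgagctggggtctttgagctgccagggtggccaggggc

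The Col10a1 sequence held TATAAA from 31 bases before the start and ACAAAG from 183 bases before it, and 0 GGGCGG. The Col11a1 and Col11a2 sequences each held 3 GGGCGG and 0 of the other motifs, and a pair of the Col11a2 matches overlapped. Their share of G and C was 41.6% for Col10a1, 65.6% for Col11a1 and 62.8% for Col11a2, beside a median of 52.0% over all promoters. The Col9a1 and Col9a2 windows, with 46.8% and 52.0% G and C, held none of the motifs. A match describes these letters and not a bound site.

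The hairpin of miR-330, the miRNA given by AAV, has a mature form from each arm, and both are given from RefSeq on GRCr8 with the seed, bases 2 to 8, in capitals. Transcript sequences were not analysed here, so matches of these seeds in the collagen RNAs were not counted.
rno-miR-330-3p, chr1:87961266-87961288, plus strand: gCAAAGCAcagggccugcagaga
rno-miR-330-5p, chr1:87961227-87961248, plus strand: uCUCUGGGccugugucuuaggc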

How the data were processed

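Single-cell RNA of 3 pooled libraries was made with a kit that counts UMIs at the 3′ end of RNA. The submitters' processing notes name Cell Ranger 7.0, STAR and Seurat 4.0.1 with the builds GRCh38 and mm10, while the tables carry rat identifiers. For each library the authors deposited mean counts per gene and cluster, a normalized signal, with log2 fold changes and p-values of clusters against each other that were not used. Each mean was divided by the smallest one above 0 in its cluster, and 100% of values came out within 0.001 of a whole number, read as UMIs. Names on several identifiers were summed. Ratios had 0.5 UMI added to each count, with exact conditional intervals. With 1 library per condition no test or count model was run. Marker enrichment meant at least 10 UMIs and a log2 fold of 1 over the other clusters. The lists were other collagens, hydroxylation and folding, secretion, propeptide processing, crosslinking, transcription factors, hypertrophic genes, collagen II degrading enzymes, cartilage matrix and receptors. Named list genes were among the 3 with most UMIs, or the 2 largest ratios each way with intervals apart, save Sox9, Sox5, Adamts14 and Mmp3, and likeness lists took 10 or 5 genes. Members and lists were chosen with earlier results of these data known. Doublets and free RNA were not removed, and cell barcodes shared by libraries could not be counted in cluster sums. Python 3.11.15, NumPy 2.4.6, SciPy 1.17.1, pandas 2.3.3 and Matplotlib 3.10.9 were used, and the intervals were tested on simulated data.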

Additional observations from a re-analysis of the deposited data

How the results depend on the processing

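No paired analysis was possible because each condition had 1 library. Of the collagens past 1.5-fold, UAC against sham had 0 by CPM. Col9a3 was called higher with deposited mean counts (0.61) and per UMI of the chondrocyte markers (0.67), Col2a1 was called lower with the median of all genes set to 0 (-0.62), and 6 were called lower over all clusters. With deposited mean counts 5 instead of 3 passed for UAC + miR-330 against UAC, and 5 instead of 3 for UAC + miR-330 against sham. No share of all genes on this scale is given beside these counts, and the scale raises every gene alike. The median log2 ratio for UAC against sham, -0.27 by CPM, was -0.071 with deposited mean counts, -0.40 with the median of all genes set to 0, -0.019 per UMI of the chondrocyte markers and -1.12 over all clusters. For UAC + miR-330 against UAC, 0.56 by CPM, it was 0.80 with deposited mean counts, 0.35 per UMI of the chondrocyte markers and 0.48 over all clusters. Deposited mean counts add 0.20 and 0.24 to every log2 ratio of these comparisons and 0.43 for UAC + miR-330 against sham, where Col2a1 turned from -0.16 to 0.27 and Col9a2 also came out above 0. Over all clusters that comparison had 1 called higher (Col9a3, 0.67) and 3 called lower (Col2a1, -1.08, Col9a2, -1.04, and Col11a2, -0.71), with a median of -0.52 instead of 0.41. Col10a1 and Col11a1, called higher within the cluster, had log2 ratios of 0.38 and -0.19 over all clusters. The share of collagen UMIs in the cartilage marker cluster was 98.7%, 99.0% and 97.6% in sham, UAC and UAC + miR-330 with the lowest cluster subtracted, and 93.1%, 97.0% and 94.2% with equal weight for every cluster. Apart from the scale's own construction the causes were not tested. Of the single gene ratios under these alternatives 68 stayed within their counting interval, 78 moved out of it and 1 changed sign after a call. Of the chain ratios 26 stayed and 10 moved. Leaving haemoglobin, immunoglobulin, ribosomal protein and mitochondrial genes out of the total, 5 added UMIs, subtraction of the lowest cluster, and minimums of 10 or 200 UMIs left the counts past 1.5-fold as they were. A fold of 2 gave 0, 2 and 2 collagens for UAC against sham, UAC + miR-330 against UAC and UAC + miR-330 against sham. Shares of all genes past the limit were taken by CPM at 1.5-fold only, within the cluster and over all clusters. Counts under other scales, minimums and folds have no such share beside them.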
